A study of Mus musculus with 8 samples.

Results

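The adipokines examined here are 7 genes whose secreted products come from fat: *Lep*, *Adipoq*, *Retn*, *Retnla*, *Nampt*, *Apln* and *Rarres2*. They were chosen by their symbols and make up 7 of 38358 genes with a summed value in ING WAT, the inguinal white fat depot under the skin of the groin. All 7 were measured in every mouse and all 7 passed the expression filter of a mean of at least 1 FPKM, as did 16088 genes in all. FPKM is the number of fragments per kilobase of transcript and relative to all mapped fragments of the library, summed here over the transcripts of a gene, so that levels of different genes can be compared per length.

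The study followed the maturation of white fat from weaning to young adulthood. Poly(A)+ RNA was sequenced from 4 C57BL/6j mice at postnatal day 21 (PN21: m1, m49, m138 and m145) and from 4 at PN98 (m35, m106, m114 and m125), 1 library per mouse, and the labels name no transgene or treatment in either group. All were raised on the synthetic AIN93G diet and received very little food in the night before dissection. In the study PN98 mice were fed AIN93M or a western style diet from PN42 on, and neither the labels nor the methods tell which of these the 4 sequenced PN98 mice had. Age therefore cannot be told apart from diet and from anything else that differed between the groups. The methods describe the killing of females at PN21, but *Ddx3y*, *Eif2s3y*, *Kdm5d* and *Uty* of the Y chromosome were at 2.41 FPKM or more in all 8 libraries, PN21 included, while *Xist* was at 0.247 to 0.832 FPKM at PN21 and at 0.0070 FPKM or less at PN98.

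Adipocytes release peptide hormones that report the state of the fat store to the brain, liver and muscle. Leptin rises with fat mass and curbs appetite, adiponectin raises insulin sensitivity, and resistin is made by adipocytes in mice and counteracts insulin. Other adipokines act on nearby cells of the depot: chemerin attracts immune cells, apelin acts on blood vessels, resistin-like alpha is a product of alternatively activated macrophages and other cells, and *Nampt* encodes the rate-limiting enzyme of NAD salvage, which is also released as visfatin. In RNA from whole tissue, more cells of a type and more RNA per cell cannot be told apart.

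*Lep* and *Adipoq* were higher and *Apln* was lower in every PN98 mouse than in every PN21 mouse. Of these 3 differences, the one of *Adipoq* passed the test across all genes. *Rarres2* and *Retnla* had higher means at PN98 with overlapping ages, and the means of *Retn* and *Nampt* differed by less than the spread between mice. The differences were tested with limma on log2(FPKM + 1) as PN98 minus PN21, with Benjamini-Hochberg adjustment over the 16088 genes.

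In the mouse genome (mm10, the same assembly as GRCm38), *Lep* lies on the plus strand of chromosome 6 (chr6:29060220-29073877) and *Rarres2* on the minus strand of the same chromosome (chr6:48569696-48572789). *Adipoq* (chr16:23146536-23158028) and *Retnla* (chr16:48842551-48844461) share the plus strand of chromosome 16. *Retn* (chr8:3655770-3660110) and *Nampt* (chr12:32819545-32853349) lie on the plus strand, and *Apln* (chrX:48025146-48034853) on the minus strand. All 7 are protein-coding.

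The bases just before the start site are printed for the 3 members whose ages did not overlap, because these stretches hold the control sequences nearest to transcription. They are 150 bases of RefSeq sequence (build GRCm38.p6), 5′ to 3′ on the strand of the gene, for *Lep* at chr6:29060071-29060220, plus strand, for *Adipoq* at chr16:23146386-23146535, plus strand, and for *Apln* at chrX:48034854-48035003, minus strand. Capitals mark matches, on either strand, to 3 of the motifs searched. They are the TATA box, spelled TATAA, at which transcription is often positioned, the CCAAT box, spelled as in its name, and a motif of C/EBP proteins, factors of adipocyte differentiation, spelled TTGCNNAA with N for any base.
Lep: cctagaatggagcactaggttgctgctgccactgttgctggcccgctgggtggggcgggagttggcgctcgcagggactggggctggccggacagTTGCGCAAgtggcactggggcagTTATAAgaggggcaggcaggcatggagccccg
Adipoq: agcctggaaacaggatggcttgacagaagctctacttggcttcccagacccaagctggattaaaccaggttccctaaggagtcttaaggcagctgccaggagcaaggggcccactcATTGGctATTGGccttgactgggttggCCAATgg
Apln: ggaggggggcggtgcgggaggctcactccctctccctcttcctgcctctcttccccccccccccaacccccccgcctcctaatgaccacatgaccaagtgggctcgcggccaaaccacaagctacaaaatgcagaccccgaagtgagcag
A RefSeq promoter was matched for 6 of the 7 genes, all but *Rarres2*, and 250 bases before each start site were searched. *Lep* held a TTGCNNAA match 55 bases before its start and overlapping TATAA matches on both strands 31 and 32 bases before it. *Adipoq* held 3 CCAAT matches, which began 34, 27 and 7 bases before the start. *Retnla* held 1 TATAA match at 30 bases, 1 TTGCNNAA match at 134 bases and 1 AGGTCA match (the half-site of nuclear receptors) at 50 bases, and *Nampt* held AGGTCA at 151 bases. The windows of *Retn* and *Apln* matched none of the 5 motifs searched, the last of which was the E box, CACGTG. Among all 32851 promoters, the TATA box was matched in 22.78% of these windows and the CCAAT box in 33.85%. The C/EBP motif was matched in 9.564%, the nuclear receptor half-site in 14.02% and the E box in 6.021%. A match describes the letters and does not show a bound factor.

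*Lep*, which encodes leptin, was expressed at 50.6 FPKM in m1, 73.8 in m49, 25.4 in m138 and 82.4 in m145 at PN21. At PN98 it was at 396 FPKM in m35, 162 in m106, 569 in m114 and 102 in m125. All 4 PN98 mice exceeded all 4 PN21 mice, and the PN98 mice differed among themselves 5.57-fold against 3.24-fold at PN21. The mean was 58.0 ± 25.6 FPKM at PN21 and 307 ± 216 FPKM at PN98 (SD, n = 4 each), a ratio of 5.30. The log2 fold change was 2.20 (standard error 0.59), the largest of the 7, and did not pass the correction as deposited (limma, adjusted p = 0.0716). It passed with median of ratios scaling (2.43, limma adjusted p = 0.0374) and with scaling to the nuclear genes (2.47, limma adjusted p = 0.0398). At PN21, 2414 of the genes tested had a higher mean than *Lep*, and at PN98 this number was 389.

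*Adipoq*, which encodes adiponectin, was at 1257 FPKM in m1, 1279 in m49, 817 in m138 and 947 in m145 at PN21, and at 2696 in m35, 2512 in m106, 3653 in m114 and 2769 in m125 at PN98. The ages were far apart and the mice of each age close together, within 1.57-fold at PN21 and 1.45-fold at PN98. The mean rose from 1075 ± 229 FPKM to 2907 ± 509 FPKM (SD, n = 4 each), a ratio of 2.71, with a log2 fold change of 1.45 (standard error 0.21, limma adjusted p = 0.0112). It was the 1 member of 7 with an adjusted p under 0.05, where 2.33% of all genes tested were called higher and 2.92% lower at PN98. The call held in every alternative tried, with log2 fold changes from 0.61 to 1.71. Its lowest value came after centring each mouse on its adipocyte markers (0.61, limma adjusted p = 0.0345), in a setting where the median over all genes was −1.05.

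*Retn*, which encodes resistin, was at 878 FPKM in m1, 1489 in m49, 425 in m138 and 1119 in m145 at PN21. At PN98 it was at 887 FPKM in m35, 915 in m106, 1400.3 in m114 and 1383 in m125. The PN98 values all lay inside the range of the PN21 mice. Means were 978 ± 446 FPKM and 1146 ± 284 FPKM (SD, n = 4 each), and the log2 fold change of 0.33 (standard error 0.38) was below its error (limma, adjusted p = 0.579). The sign turned to −0.50 after centring on adipocyte markers and to −0.02 without m138.

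*Rarres2*, which encodes prochemerin, was at 352 FPKM in m1, 242 in m49, 212 in m138 and 550.4 in m145 at PN21, and at 775 in m35, 465 in m106, 1158.5 in m114 and 369.9 in m125 at PN98. The ages overlapped through m145 on the one side and through m106 and m125 on the other. The mean was 339 ± 153 FPKM at PN21 and 692 ± 356 FPKM at PN98 (SD, n = 4 each), with a log2 fold change of 0.99 (standard error 0.43, limma adjusted p = 0.182). The authors' table lists its transcript together with the overlapping gene *Lrrc61*, and whether strand was used in the quantification is not given in the sources used here, so part of the signal may belong to either gene.

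*Retnla*, which encodes resistin-like alpha (FIZZ1), was at 289 FPKM in m1, 221 in m49, 128 in m138 and 538 in m145 at PN21. At PN98 it was at 657 FPKM in m35, 433 in m106, 676 in m114 and 219.9 in m125. The highest PN21 mouse, m145, exceeded 2 of the 4 PN98 mice. Means were 294 ± 175 FPKM and 496 ± 215 FPKM (SD, n = 4 each), and the log2 fold change was 0.81 (standard error 0.50, limma adjusted p = 0.312). After centring on adipocyte markers it was −0.02.

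*Nampt* was at 23.7 FPKM in m1, 44.0 in m49, 25.3 in m138 and 26.7 in m145 at PN21, and at 22.4 in m35, 30.3 in m106, 22.7 in m114 and 40.0 in m125 at PN98. The highest mice, m49 at PN21 and m125 at PN98, were close to each other, and the ages overlapped. The means of 29.9 ± 9.45 FPKM and 28.8 ± 8.29 FPKM (SD, n = 4 each) gave a log2 fold change of −0.05 (standard error 0.26, limma adjusted p = 0.926), whose sign depended on the scaling. After centring on adipocyte markers it was −0.88 (limma, adjusted p = 0.0240), in a setting where 11001 of the 16088 genes were called.

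*Apln*, which encodes apelin, was at 8.82 FPKM in m1, 8.62 in m49, 5.30 in m138 and 5.50 in m145 at PN21. At PN98 it was at 4.70 FPKM in m35, 0.960 in m106, 2.72 in m114 and 0.513 in m125. Every PN98 mouse lay below every PN21 mouse, but m35 was close to them, and the PN98 mice spread 9.17-fold against 1.66-fold at PN21. Means were 7.06 ± 1.92 FPKM and 2.22 ± 1.91 FPKM (SD, n = 4 each), with a log2 fold change of −1.49 (standard error 0.42) that did not pass the correction (limma, adjusted p = 0.0810). It passed without m35 (−1.83, limma adjusted p = 0.0158), and with the weights of limma's arrayWeights (−1.92, limma adjusted p = 0.00569). The pseudocount of 1 shortens the change of a gene at this level, and with 0.1 in its place the log2 fold change was −2.02.

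**Figure D1:**
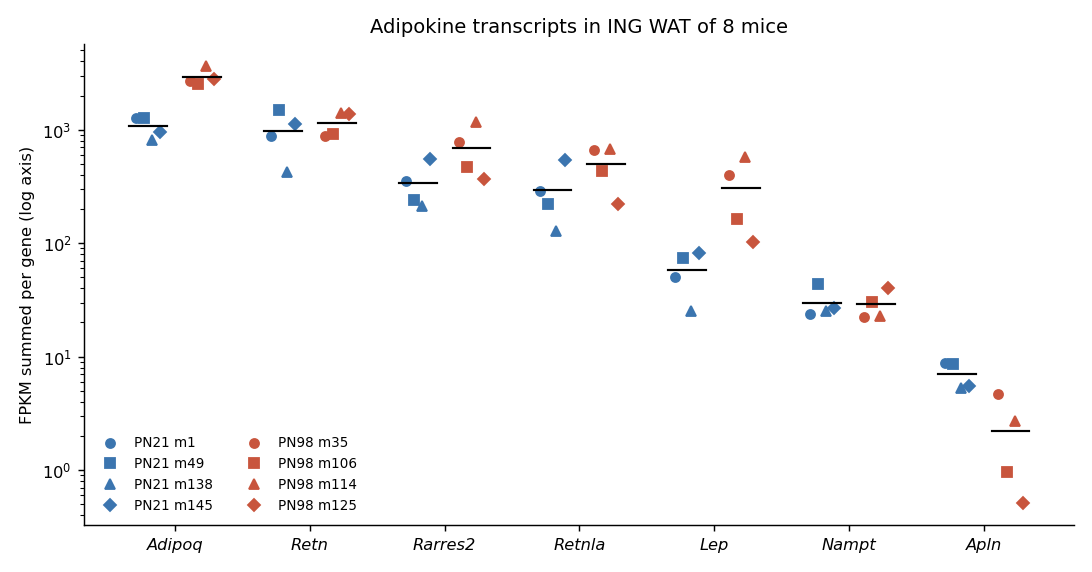
FPKM summed per gene (log axis) of the 7 adipokines in 4 PN21 mice (blue) and 4 PN98 mice (red), 1 point per mouse with a black bar at the mean of each age. The ages stand apart in *Adipoq* and *Lep*, both higher at PN98, and in *Apln*, which is lower, and overlap in the other 4.

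Taking the non-overlapping members together, 2 of 7 had all PN98 mice above all PN21 mice, which held for 6.06% of the genes tested, and 1 of 7 had all PN98 mice below, which held for 10%. The log2 fold change was positive in 5 of the 7 adipokines and in 33.0% of all genes tested, and its median was 0.81 among the adipokines and −0.21 over all genes. *Nampt* turned positive with either other scaling, and *Retn* and *Retnla* negative after centring on adipocyte markers. With m35 and m145 left out, 2556 genes were called in place of 845, and among the adipokines *Adipoq* (1.42, limma adjusted p = 0.0273) and *Apln* (−1.92, limma adjusted p = 0.0329) passed. These mice stood apart from their age on the first principal component, m145 over transcripts (−430 against −31.8 to 36.4 in the other PN21 mice) and m35 over genes (−34.4 against 51.9 to 102 in the other PN98 mice and −70.9 to −29.8 at PN21). Over genes, the level of the counts given here, m145 was at −47.6, inside the range of its age. Of the 845 genes called as deposited, 375 were higher and 470 (55.6%) lower at PN98, a split that moved to 753 and 453 (37.6%) with median of ratios scaling and to 536 and 264 (33.0%) with scaling to nuclear genes.

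At both ages the order of the means was *Adipoq*, *Retn*, *Rarres2*, *Retnla*, *Lep*, *Nampt* and *Apln*, from 1075 to 7.06 FPKM at PN21 and from 2907 to 2.22 FPKM at PN98. At PN21 the ranges of *Adipoq* and *Retn* overlapped, as did those of *Retn* and *Rarres2*, *Rarres2* and *Retnla*, and *Lep* and *Nampt*. At PN98 *Adipoq* stood clear of *Retn*, and *Lep* clear of *Nampt*, whereas *Lep* overlapped with *Retnla*, *Retnla* with *Rarres2* and *Rarres2* with *Retn*. Summed over the 7 genes, adipokine transcripts came to 1638 to 3356 FPKM per mouse at PN21 and 4518 to 7482 FPKM at PN98. *Adipoq* and *Retn* together supplied 63.2% to 82.5% of this sum at PN21 and 65.9% to 85.0% at PN98.

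Single transcripts were compared on log2(FPKM) without a pseudocount, for transcripts above 0 in all mice and with a mean above 2 FPKM at one age. The 7 genes had 10 transcripts in the table, of which 9 passed this filter and 1 had an adjusted p under 0.05, against 1.34% of the 22826 transcripts tested. This was the main *Adipoq* transcript, ENSMUST00000023593, with a log2 fold change of 1.36 (standard error 0.23, limma adjusted p = 0.0462). The other *Adipoq* transcript, ENSMUST00000171309, was at 524, 335, 294 and 196 FPKM in m1, m49, m138 and m145 and at 999, 869, 1273 and 1001 FPKM in m35, m106, m114 and m125. Its log2 fold change was 1.69 (standard error 0.31, limma adjusted p = 0.0533), and it made up 31.4% of *Adipoq* at PN21 and 35.6% at PN98. *Lep* came almost whole from ENSMUST00000069789, which held 99.6% of the gene's FPKM at PN21 and 100% at PN98 after rounding, and *Retn* from ENSMUST00000012849, with 98.2% and 98.0%. *Retnla*, *Nampt*, *Apln* and *Rarres2* were each listed with 1 transcript.

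Ratios within a mouse do not depend on how its library was scaled, and *Adipoq* was taken as the reference because it was the most abundant of the 7. *Lep* amounted to 4.02% of *Adipoq* in m1, 5.77% in m49, 3.11% in m138 and 8.71% in m145, and to 14.7% in m35, 6.46% in m106, 15.6% in m114 and 3.69% in m125. The ages overlapped, since m125 lay below 3 of the 4 PN21 mice. The mean log2 ratio was −4.32 ± 0.65 at PN21 and −3.54 ± 0.998 at PN98 (SD, n = 4 each), and the difference of 0.78 lay within the spread between mice (two-sided exact permutation test over 70 splits, p = 0.229, where 0.0286 is the smallest p possible).

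*Retn* made up 69.8%, 116%, 52.1% and 118% of *Adipoq* in m1, m49, m138 and m145, and 32.9%, 36.4%, 38.3% and 49.9% in m35, m106, m114 and m125. Thus *Retn* reached or passed the level of *Adipoq* in 2 PN21 mice and was at no more than 49.9% of it in the PN98 mice. *Nampt* amounted to 1.89% to 3.44% of *Adipoq* at PN21 and to 0.620% to 1.44% at PN98, and *Apln* to 0.581% to 0.702% and to 0.0185% to 0.175%. In these 3 members the ages did not overlap, all lower at PN98, which held for 77.1% of all genes tested when set against *Adipoq*, whereas 0.205% of genes were higher in all PN98 mice. *Retnla* (15.7% to 56.8% at PN21, 7.94% to 24.4% at PN98) and *Rarres2* (18.9% to 58.1% at PN21, 13.4% to 31.7% at PN98) overlapped. At PN21 the *Apln* to *Adipoq* ratio had a spread of 0.12 on the log2 scale (SD, n = 4), and at PN98 of 1.38.

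**Figure D2:**
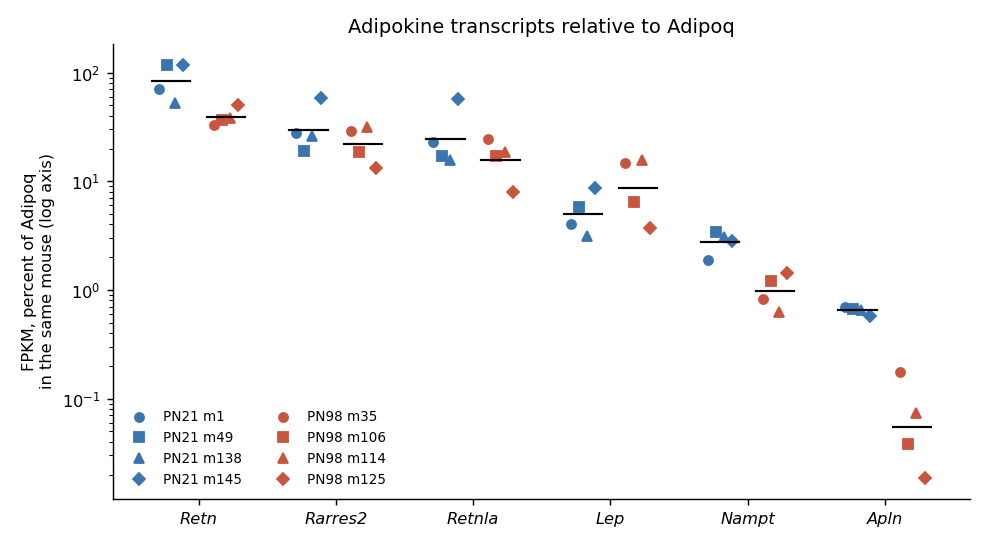
FPKM of 6 adipokines as a percent of *Adipoq* in the same mouse (log axis), with PN21 mice in blue, PN98 mice in red and a black bar at the geometric mean of each age. *Retn*, *Nampt* and *Apln* are lower relative to *Adipoq* in all PN98 mice, whereas *Lep*, *Retnla* and *Rarres2* overlap between the ages.

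Levels of cell type markers in the same libraries are given beside these values. The 12 adipocyte markers summed to 14690 to 26270 FPKM at PN21 and 35730 to 47230 FPKM at PN98. The fatty acid carrier *Fabp4* alone supplied 72.4% to 82.1% of each sum, and without it the sums were 4053 to 6046 FPKM and 8204 to 9798 FPKM. The test was passed by 4 of the 12, all higher, against 2.33% of all genes tested that were called higher. These were *Cidec* (log2 fold change 2.16), *Plin4* (2.13), *Cd36* (1.11) and *Lipe* (0.99). The median log2 fold change of the 12 was 0.88. Negative values were found for *Gpd1* (−0.94, limma adjusted p = 0.263) and *Slc2a4* (−0.30, limma adjusted p = 0.593). *Cidec* and *Plin4* kept the call in every alternative, whereas *Cd36* lost it without m1, m138, m145, m106 or m114 alone (adjusted p up to 0.0714) and *Lipe* without any 1 mouse other than m35 (up to 0.121). In m138, the PN21 mouse with the lowest sum of 14690 FPKM, *Lep*, *Adipoq*, *Retn*, *Retnla*, *Rarres2* and *Apln* were also the lowest of their age. The PN98 mice did not follow this pattern. Among them m125 had the highest sum (47230 FPKM) and the highest *Nampt*, but the lowest *Lep*, *Retnla*, *Rarres2* and *Apln*. Without *Fabp4* the highest sum was that of m106, at 9798 FPKM against 9766 FPKM in m125. The lowest PN98 sum (35730 FPKM) was in m35, which had the lowest *Retn* and *Nampt* but the highest *Apln*. The share of the adipocyte markers in the values of the adipokines was not tested beyond the centring given above.

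Lymphocyte markers (8 of 9 tested) summed to 322 to 791 FPKM at PN21, 744 in m35 and 13.3 to 147 in the other 3 PN98 mice. None of the 8 passed the test, with the largest log2 fold changes in *Cd3g* (−2.82, limma adjusted p = 0.124), *Cd79b* (−2.26) and *Cd3e* (−2.25). Without m35 all 8 passed, lower at PN98, in a setting where 2889 of the 16088 genes were called lower. Skeletal muscle markers (6 of 7 tested) summed to 7.91 to 387 FPKM at PN21 and 384 to 2448 FPKM at PN98, and *Atp2a1*, the calcium pump of fast muscle fibres, passed (4.198, limma adjusted p = 0.0405) but did not without m1, m49, m145, m106, m114 or m125 alone (up to 0.121). Macrophage markers, of interest for *Retnla*, summed to 488 to 764 FPKM at PN21 and 234 to 934 FPKM at PN98. None of these 9 passed, and *Cd14* (0.75), *Lyz2* (−0.52) and *Cd163* (0.45) had the largest log2 fold changes. Endothelial markers, of interest for *Apln*, summed to 256 to 443 FPKM and 143 to 517 FPKM. None of these 8 passed, and *Tie1* (−0.63), *Emcn* (−0.59) and *Pecam1* (−0.55) had the largest values. Without m35 *Emcn* passed (−0.79, limma adjusted p = 0.0305). In m125, the mouse with the lowest *Apln*, both sums were the lowest of all 8 mice.

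Progenitor and stromal markers summed to 306 to 512 FPKM at PN21 and 178 to 412 FPKM at PN98, and 1 of 8, the preadipocyte factor *Dlk1*, was lower (−2.91, limma adjusted p = 0.00557). Over all genes tested, 2.92% were called lower. Epithelial markers were scarce, at 2.33 to 28.0 FPKM in sum at PN21 and 0.211 to 1.36 FPKM at PN98. The 4 tested passed the expression filter through PN21 alone, with PN98 means of 0.304 FPKM or less. Their negative log2 fold changes were therefore fixed by the filter. *Epcam* was the 1 that passed (−1.16, limma adjusted p = 0.0422), a call lost without any 1 mouse other than m35 (up to 0.125), while *Krt5* (−1.58), *Krt14* (−1.56) and *Krt18* (−1.19) did not pass. Brown adipocyte markers, 7 genes, summed to 3038 to 6459 FPKM at PN21 and 371 to 4228 FPKM at PN98, with none past the test. The uncoupling protein *Ucp1* was at 544 to 650 FPKM at PN21 and at 7.41 to 356 FPKM at PN98, with all PN98 mice lower (log2 fold change −2.81, limma adjusted p = 0.149). *Cox7a1* (−2.48, limma adjusted p = 0.0909) was also lower in all PN98 mice and passed without m125 (−3.08, limma adjusted p = 0.0490). *Elovl3* went the other way (1.81, limma adjusted p = 0.352), with 54.1 to 55.9 FPKM in m106 and m125 and 6.91 FPKM or less in the other 6 mice, and the ages of *Cidea* overlapped, with means of 483 and 507 FPKM. What part these other cells had in the adipokine values was not tested.

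On the receiving side, 8 of 9 receptor genes passed the expression filter. Of these, 1 had an adjusted p under 0.05 and was higher, where 2.33% of all genes tested were called higher. This was *Cmklr1*, the signalling receptor of chemerin. It was at 12.8, 13.9, 11.99 and 12.9 FPKM in m1, m49, m138 and m145 and at 38.4, 31.7, 19.7 and 59.7 FPKM in m35, m106, m114 and m125. All PN98 mice exceeded the PN21 mice, whose values were almost equal, and the log2 fold change was 1.36 (standard error 0.30, limma adjusted p = 0.0416). The call was lost in 10 of 17 alternatives, among them without m1, m49, m138, m145, m106 or m125 alone (adjusted p up to 0.108). Across the PN98 mice the receptor and its ligand did not run together, since m114 had the highest *Rarres2* and the lowest *Cmklr1*, and m125 the reverse. The other chemerin receptors were low, with *Ccrl2* at 0.745 to 2.60 FPKM (log2 fold change 0.22, limma adjusted p = 0.593) and *Gpr1* below the filter at 0.244 to 1.19 FPKM.

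The adiponectin receptors *Adipor1* and *Adipor2* were both higher in all PN98 mice as deposited, but neither passed the correction and both turned negative after centring on adipocyte markers. With arrayWeights both passed (limma, adjusted p = 0.0279 and 0.0364), and *Adipor1* also with no filter on low values (limma, adjusted p = 0.0266). *Adipor1* was at 36.1 ± 3.06 FPKM and 48.2 ± 1.76 FPKM (SD, n = 4 each), with a log2 fold change of 0.41 (standard error 0.13, limma adjusted p = 0.104), and *Adipor2* at 111 ± 31.7 FPKM and 195 ± 64.4 FPKM (0.80, standard error 0.32, limma adjusted p = 0.158). *Cdh13*, which encodes T-cadherin and binds adiponectin oligomers, was at 13.4 ± 2.00 FPKM and 12.9 ± 7.44 FPKM (−0.19, limma adjusted p = 0.744). The leptin receptor *Lepr* was low, at 1.02 to 2.39 FPKM at PN21 and from 0.256 FPKM in m125 to 4.44 FPKM in m35 at PN98 (−0.27, limma adjusted p = 0.707). The apelin receptor *Aplnr* was at 41.9, 26.4, 29.8 and 49.3 FPKM at PN21 and at 29.6, 8.49, 28.2 and 2.63 FPKM in m35, m106, m114 and m125 (−1.47, limma adjusted p = 0.192). With arrayWeights it passed (−1.72, limma adjusted p = 0.0315). Its PN98 mice stood in the same order as those of *Apln*, m35 highest, then m114, m106 and m125, an order found in 18.24% of all genes tested and also in the summed endothelial and macrophage markers. *Cap1*, which encodes a protein described as a binding partner of resistin, was at 85.0 ± 15.3 FPKM and 61.1 ± 28.7 FPKM (−0.56, limma adjusted p = 0.267), and passed without m35 (−0.84, limma adjusted p = 0.0390).

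**Figure D3:**
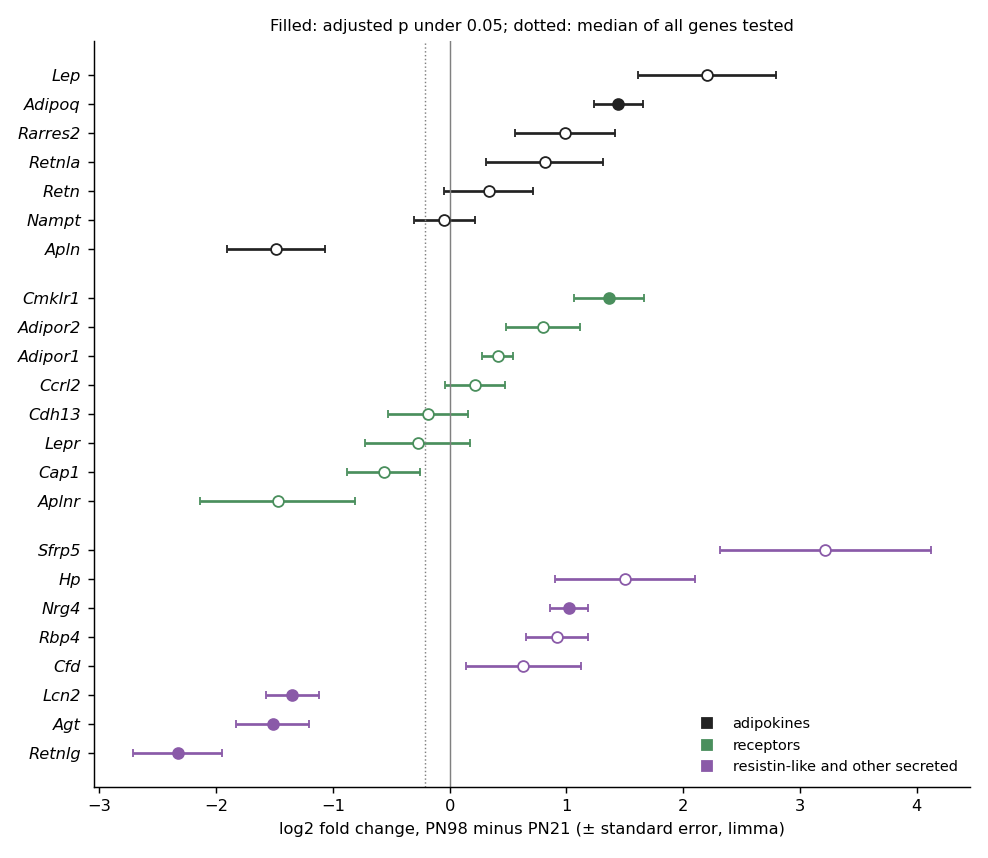
Log2 fold change of PN98 minus PN21 with its standard error from limma for the 7 adipokines (black), the 8 receptors tested (green) and selected resistin-like and other secreted products (purple). Filled points have an adjusted p under 0.05, which among the adipokines holds for *Adipoq* and among the receptors for *Cmklr1*, and the dotted line marks the median of all genes tested, −0.21.

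As deposited, no gene passed the test in 4 lists of steps around these hormones, though several did in other settings. Among the 6 genes for the folding and secretion of adiponectin in the endoplasmic reticulum, the median log2 fold change was −0.41 while that of *Adipoq* was 1.45. *P4hb* (−0.62), *Hspa5* (−0.58) and *Erp44* (−0.43), which encode a disulfide isomerase, a chaperone and a thiol retention factor, had the largest values. *Hspa5* was at 192 to 266 FPKM at PN21 and 124 to 190 FPKM at PN98, and *Erp44* at 48.7 to 63.6 and 32.4 to 48.5 FPKM, so that the ages of both did not overlap. Among the 12 genes of NAD salvage and use tested beside *Nampt*, *Qprt* (−0.74), *Parp1* (−0.59) and *Naprt* (−0.55) had the largest values, each with an adjusted p of at least 0.129. In the 6 genes of leptin signal transduction, the largest values were 1.36 for *Irs2*, −1.22 for *Socs3* and −0.32 for *Ptpn1*. In the 10 transcription factors of adipocytes they were −0.83 for *Cebpb*, 0.50 for *Cebpa* and −0.41 for *Klf15*. Without m35, *Socs3* (−1.67, limma adjusted p = 0.00473), *Qprt* (−1.09, limma adjusted p = 0.0174) and *Parp1* (−0.72, limma adjusted p = 0.0357) passed, and these 3 passed without m35 and m145 too. With arrayWeights *P4hb*, *Hspa5*, *Erp44*, *Qprt*, *Parp1*, *Naprt*, *Irs2* and *Socs3* passed, each with the sign given above, as did *Pdia4* (lower) and *Rxra* (higher). *Nmrk1* passed with median of ratios scaling and *Sirt2* with its highest transcript alone, both higher. After centring on adipocyte markers, 5 of the 6 genes of adiponectin folding, 10 of the 12 of NAD, 3 of the 6 of leptin signals and 5 of the 10 transcription factors passed, all lower. These settings also called many of all 16088 genes tested. They called 3577 without m35, 4623 with arrayWeights and, after centring, 10907 lower and 94 higher.

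In the resistin-like family, *Retnlg*, a myeloid relative of resistin, fell from 10.8, 3.74, 10.4 and 10.7 FPKM at PN21 to 1.30, 1.68, 0.669 and 0.146 FPKM at PN98. The ages did not overlap, and the log2 fold change was −2.33 (standard error 0.38, limma adjusted p = 0.0170). Without m1, m138, m145 or m114 alone the adjusted p rose to between 0.0535 and 0.0602. Markers of granulocytes, cells known to express *Retnlg* and *Lcn2*, had a lower sum at PN98. These 9 genes, chosen after values were seen and not tested as a list, summed to 63.71 to 137.6 FPKM at PN21 and 3.926 to 11.78 FPKM at PN98. In 7 of the 9 all PN98 mice lay below all PN21 mice. The share of 10% over the genes tested cannot be set against this count, because values were seen before the choice. *Ly6g* and *Mpo*, 2 of the 7, were also under the expression filter. *Cxcr2* and *Elane* overlapped between the ages. Most of the sum at PN21 came from *S100a9* (46.5 to 105.0 FPKM against 1.82 to 6.15 FPKM), 1 of the 7. *Ngp* (4.60 to 9.52 against at most 0.0759 FPKM) and *Camp* (4.49 to 13.5 against at most 0.0972 FPKM) were also among them. *Ly6g* was at 0 in all PN98 mice. What part granulocytes had in *Retnlg* and *Lcn2* was not tested. *Retnlb* was listed at 0 in all 8 mice. The log2 fold changes of *Retn* and *Retnla* were positive, did not pass the test and turned negative after centring on adipocyte markers.

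Of 28 other secreted products of fat, 23 were tested. The test called 1 of these 23 higher, where 2.33% of all genes tested were, and 2 lower, where 2.92% were. Their log2 fold changes had a median of −0.06, and those of all genes tested one of −0.21. *Nrg4*, a growth factor released by thermogenic fat, was at 39.3 ± 2.81 FPKM at PN21 and 81.5 ± 13.7 FPKM at PN98 (SD, n = 4 each) (1.02, limma adjusted p = 0.0160). *Agt*, which encodes angiotensinogen, fell from 21.8 ± 9.27 FPKM to 6.49 ± 0.984 FPKM (−1.52, limma adjusted p = 0.0333), and *Lcn2*, which encodes lipocalin 2, from 5.42 ± 0.988 FPKM to 1.57 ± 0.685 FPKM (−1.35, limma adjusted p = 0.0183). *Nrg4* lost its call without m106 (adjusted p = 0.0615), after centring and with its highest transcript alone, *Agt* without m1, m49, m145, m106, m114 or m125 alone (up to 0.106), with median of ratios scaling (0.0649), with no filter on low values (0.0530) and without m35 and m145 (0.0622), and *Lcn2* without m1, m138, m145 or m106 alone (up to 0.0671). A further 4 were singled out after their values were seen. *Cfd*, which encodes adipsin, was more abundant than any of the 7 adipokines, with 3908 ± 2393 FPKM and 6182 ± 4119 FPKM (0.63, limma adjusted p = 0.423). *Rbp4*, the retinol carrier, was higher in all PN98 mice at 180 ± 51.7 FPKM and 336 ± 77.0 FPKM (0.92, limma adjusted p = 0.0860). *Sfrp5* had a log2 fold change of 3.22 (limma adjusted p = 0.0804), with all PN98 mice higher, and *Hp* one of 1.504 (limma adjusted p = 0.159), with overlapping ages.

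Among the 4 PN98 mice, *Lep*, *Retnla* and *Rarres2* shared 1 order, m114 highest, then m35, m106 and m125. The same order was found in 8.603% of all genes tested. *Hp*, which encodes haptoglobin, was at 1583 FPKM in m35 and 2289 in m114, but at 408 in m106 and 553 in m125. *Sfrp5*, a secreted inhibitor of WNT signals, was at 148 FPKM in m35 and 105.6 in m114, and at 17.5 in m106 and 6.999 in m125. The order of *Sfrp5* was found in 18.24% of all genes tested. Both orders put m35 and m114 highest, so that split was not particular to these genes. *Ucp1* ran the other way, with 7.41 FPKM in m35 and 56.3 in m114 against 278 in m106 and 356 in m125. *Adipoq* and *Retn* kept another order, with m114 and m125 above m35 and m106, so that m125 had the second highest *Adipoq* of its age and the lowest *Lep*. At PN21, *Lep*, *Rarres2* and *Retnla* were highest in m145 and lowest in m138.

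**Figure D4:**
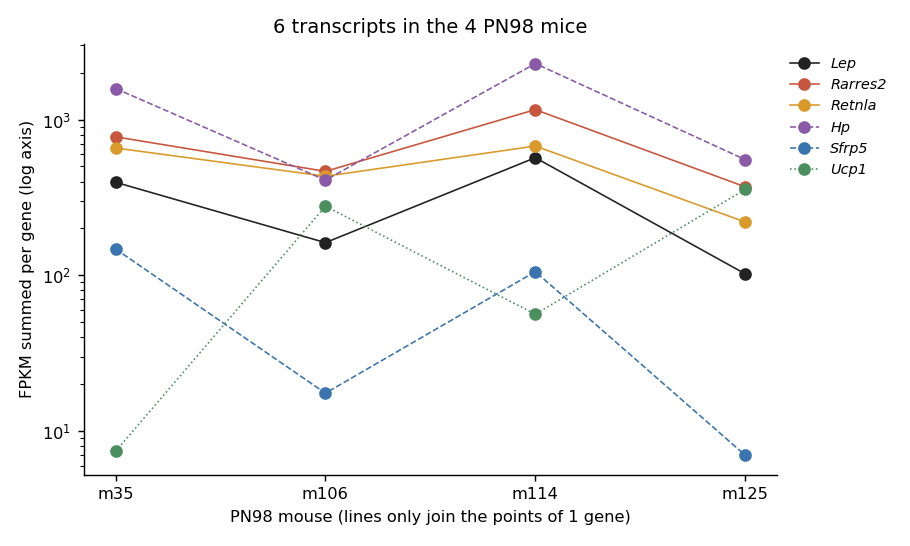
FPKM summed per gene (log axis) of *Lep*, *Rarres2*, *Retnla*, *Hp*, *Sfrp5* and *Ucp1* in the 4 PN98 mice, where the lines only join the points of 1 gene. All but *Ucp1* are higher in m35 and m114 than in m106 and m125, and *Ucp1* is lower there. *Hp* and *Sfrp5* were singled out after their values were seen, and the split was not particular to these genes.

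Over all 8 mice, the Pearson correlation of log2(FPKM + 1) between *Retnla* and *Rarres2* was 0.93, between *Lep* and *Rarres2* 0.91 and between *Lep* and *Retnla* 0.85. After the mean of each age was removed these were 0.92, 0.86 and 0.86, respectively. *Lep* and *Adipoq* had 0.87 over the 8 mice and 0.58 after the age means were removed. *Nampt* had negative values with *Rarres2* (−0.54) and *Retnla* (−0.47). These describe 8 libraries in which the points share age, scaling and tissue make-up.

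The genes most like each member over the 8 mice were picked by the highest Pearson correlation among the genes tested, and say nothing of shared control. For *Lep* they were *Ifrd1* (0.98), *Tspan17* (0.98) and the taurine and GABA transporter *Slc6a13* (0.97), and for *Adipoq* the lysosomal protease *Ctsb* (0.99), *Gm14026* (0.99) and the glutathione transferase *Gsta3* (0.98). *Retnla* was closest to the eosinophil chemokine *Ccl11* (0.96), *Rnase4* (0.96) and *Gstm2* (0.95), and *Rarres2* to *Sgce* (0.99), *Gstm2* (0.99) and *B4gat1* (0.99). *Gstm2* thus stood on both lists. *Retn* was closest to *Dand5* (0.98), *Cops6* (0.96) and *Gm15510* (0.96), *Nampt* to *1110008L16Rik* (0.95), *C330018D20Rik* (0.94) and *Gm13504* (0.93), and *Apln* to *Raph1* (0.99), *Gtpbp3* (0.99) and *Cntrob* (0.99).

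The values used are FPKM without read counts, and the sequencing depth behind them is unknown. Transcripts of the mitochondrial genome made up 50.7% to 59.8% of the sum of all FPKM in PN21 mice, and 42.2% to 51.6% in PN98 mice, and FPKM values of all other genes are scaled against them. With 4 mice per age and single-mouse libraries, the SDs given are the spread between mice. The standard errors are those of limma for the log2 fold change, which also draw on the spread of all genes tested.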

How the data were processed

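Poly(A)+ RNA of ING WAT was sequenced paired-end by the authors from 4 PN21 and 4 PN98 mice. Per the labels and methods, reads were demultiplexed with CASAVA 1.8.2, mapped to mm10 with STAR 2.3.0 and quantified per Ensembl transcript with Cufflinks 2.1.1. The authors deposited these values as FPKM per transcript and mouse, with decimal commas that are lost in 40380 of 91969 transcripts. Decimals were restored here from the SD, average and score in the same rows. In 40292 transcripts 1 reading was possible, and those with several readings (63) or none (25) were left out. A second deposited table holds the authors' own comparison (fold changes and p-values, not used here) and the FPKM of its transcripts with intact decimals: 4999 restored transcripts also stand there, and all 4999 were equal in all 8 mice.

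Transcripts were placed in 38358 genes by GENCODE vM21 (88737 transcripts), or by the gene named in the file (1938). FPKM was summed per gene, and genes with a mean of at least 1 FPKM were compared with limma 3.58.1 (R 4.3.3) on log2(FPKM + 1). Transcripts above 0 in all mice and with a mean above 2 FPKM at one age were compared with limma on log2(FPKM). A fold change on the log2(FPKM + 1) scale understates the change of low genes. The ratio of *Lep* to *Adipoq* was tested between the ages by exact permutation, two-sided (scipy 1.17.1). The limma scripts were tested on simulated data. Alternatives were other scalings, pseudocounts, filters, mouse weights, the highest transcript per gene, leaving out each mouse and, added after seeing the data, leaving out m35 and m145.

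The 7 adipokines and the gene lists were chosen with earlier results of these data known. From each list the text names every gene with an adjusted p under 0.05, or otherwise the 3 with the largest log2 fold change, and the receptors in full. Granulocyte markers and the genes that passed in other settings alone were added after values were seen. *Acta1* and *Cd3d* of the marker lists were not analysed here, and the other lists' genes without a test had a mean under 1 FPKM. The labels pair no mice between the ages. The p-values set the difference between the ages against the spread between these mice. The paper describes males housed as littermate pairs, and the labels name no litters. The mice may therefore not be independent, and the p-values may be too small.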

Additional observations from a re-analysis of the deposited data

Results flagged for a closer look

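In 42 groups of 4 mice (the adipokines, the 8 receptors tested and the ratios to *Adipoq* at each age), the highest or lowest mouse was set against the others by its gap over the range of the group, with Dixon's 95% critical value for 4 values. *Gpr1*, below the expression filter, was left out. At PN21 it was at 0.970 FPKM in m145, with the next mouse at 0.302 FPKM. Chance alone passes about 1 in 20 such groups, and 3 of 42 passed. *Nampt* in PN21 mouse m49 was at 44.0 FPKM, with the next mouse at 26.7 FPKM. *Adipor2* in PN21 mouse m145 was at 64.1 FPKM, with the next at 122 FPKM. *Cap1* in PN21 mouse m138 was at 108 FPKM, with the next at 77.8 FPKM. Of the 14 groups of the 7 adipokines, *Nampt* at PN21 was the 1 that passed.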

How the results depend on the processing

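*Adipoq* kept its direction and its call in all 17 alternatives, and *Rarres2* kept its direction and stayed short of the call in all 17. Without 1 mouse at a time, log2 fold changes ran from 1.32 to 1.54 for *Adipoq*, 1.803 to 2.62 for *Lep*, −0.020 to 0.58 for *Retn*, 0.48 to 1.17 for *Retnla*, −0.21 to 0.15 for *Nampt*, −1.83 to −1.19 for *Apln* and 0.69 to 1.25 for *Rarres2*, and the *Lep* to *Adipoq* difference from 0.49 to 1.19. *Lep* passed the correction with median of ratios scaling (2.43), scaling to nuclear genes (2.47) and arrayWeights (1.91), and *Apln* with centring on adipocyte markers (−2.32), with arrayWeights (−1.92), and without m35 and m145 (−1.92). *Nampt* changed sign with median of ratios scaling (0.18), scaling to nuclear genes (0.21), arrayWeights (0.019), without m49 (0.15), m35 (0.058) or m114 (0.053), and without m35 and m145 (0.020), and passed the correction after centring on adipocyte markers (−0.88). *Retn* changed sign without m138 (−0.020). Centring on adipocyte markers also turned *Retn* (−0.50), *Retnla* (−0.018), *Adipor1* (−0.42), *Adipor2* (−0.032), *Ccrl2* (−0.62), *Cebpa* (−0.33), *Cd14* (−0.086), *Cd163* (−0.39) and *Cfd* (−0.20), a setting that shifts all genes of a mouse by the same amount. *Cdh13* turned with median of ratios scaling (0.022) and scaling to nuclear genes (0.057), and ran from −0.51 to 0.086 with 1 mouse left out, the latter without m125.

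The count of genes called, 845 as deposited, was 11001 after centring, 535 with a mean of at least 5 FPKM, 4623 with arrayWeights, 2556 without m35 and m145, and 171 (without m106) to 3577 (without m35) with 1 mouse left out. The count of transcripts, 305, was 542 with median of ratios scaling, 692 with pseudocount 1, 542 with pseudocount 1 and no filter on zeros together, 1551 with arrayWeights and 47 (without m106) to 1721 (without m35) with 1 mouse left out. *Apln* had a mean under 5 FPKM and gave no value with that filter. Skeletal muscle markers passed in 1 of 6 genes as deposited, and in 5 with median of ratios scaling, 4 with scaling to nuclear genes, 6 with arrayWeights and 5 without m35. *Lipe*, *Epcam* and *Atp2a1* also lost the call with pseudocount 0.1 and with no filter on low values, and *Cd36* and *Lipe* after centring. The causes were not tested. No paired analysis was possible because the labels give the mice of the 2 ages no shared numbers. Without read counts, the precision of low genes such as *Apln* and *Lepr* is unknown.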
